A study of Mus musculus with 9 samples.

Results

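The genes described here encode the matrix metalloproteases (Mmp), the ADAMTS proteases (Adamts), the ADAMTS-like proteins (Adamtsl) and the tissue inhibitors of metalloproteases (Timp). Members were every gene on the array whose only annotated symbol began with one of these names followed by a digit. That gave 49 genes of the 19698 measured, from 74 rows of the array: 22 Mmp, 18 Adamts, 5 Adamtsl and 4 Timp. Expression was measured on 9 Affymetrix mouse Gene arrays of total RNA from subconfluent 3T3 fibroblasts, an immortalised line of embryonic mouse fibroblasts. Values are log2 signals from robust multi-array averaging (RMA), so a difference of 1 is a doubling of signal. Differences were taken between arrays. Levels of different genes were set against each other only to mark dim genes and to place cell type markers. There were 3 groups of 3 arrays: control cells left unstimulated, control cells given mouse TNF-α at 5 ng/ml for 1 hr, and cells with Brg1 and Brm knocked down (BAF-knockdown cells) given the same TNF-α treatment. The knockdown cells stably expressed a single hairpin RNA, driven by a U6 promoter in a retroviral vector and aimed at a sequence common to Brg1 and Brm, the ATPases that drive nucleosome remodelling by the BAF complex. They were sorted for high expression of the vector's green fluorescent protein. One hairpin was used, so effects of BAF loss and of that hairpin or vector cannot be told apart, and unstimulated knockdown cells were not analysed here.

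The MMPs are zinc-dependent endopeptidases that are made as inactive proenzymes and cut collagens, laminins, proteoglycans and many cell surface proteins. Most are secreted, while the membrane-type MMPs are anchored in the cell surface and can activate other MMPs there. The ADAMTS enzymes are secreted proteases that bind the matrix through thrombospondin repeats, and the ADAMTS-like proteins share those repeats but have no protease domain. The TIMPs bind the active site of these enzymes and block it. Fibroblasts are the main source of many of these proteins in connective tissue, and several Mmp genes are textbook targets of AP-1, the Fos and Jun family of transcription factors, in cells given inflammatory cytokines.

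In the RefSeq annotation of the mouse genome (GRCm38.p6), 10 of the 22 Mmp genes lie side by side on chromosome 9, in the order Mmp13, Mmp12, Mmp1b, Mmp3, Mmp1a, Mmp10, Mmp8, Mmp27, Mmp20 and Mmp7. The RefSeq promoter table, which gives 250 bases before and 50 after each annotated start, held all 10 of these genes and 34 of the 49 members. The letters TGANTCA, which read the same on both strands and are the core of the AP-1 motif, were found in the promoters of 8 of the 10 cluster genes (80%), in 0 of the 24 other members in the table, and in 8.97% of the 27025 genes of the table. Mmp12 and Mmp7 each have another annotated start without the letters. Counted by promoter, 8 of 12 in the cluster had them (66.67%), against 7.81% of all promoters. The stretch from 100 to 21 bases before the start of each of the 8 genes with a match follows, written 5′ to 3′ with the match in capitals, because these are the letters by which the cluster differs from the other members.

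Mmp13, chr9:7272414-7272493, plus strand: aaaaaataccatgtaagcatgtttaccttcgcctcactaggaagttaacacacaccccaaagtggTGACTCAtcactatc
Mmp12, chr9:7347274-7347353, plus strand: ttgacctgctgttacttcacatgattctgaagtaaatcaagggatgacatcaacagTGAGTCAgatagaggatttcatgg
Mmp1b, chr9:7388047-7388126, minus strand: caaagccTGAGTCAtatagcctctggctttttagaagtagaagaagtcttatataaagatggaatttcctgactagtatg
Mmp3, chr9:7445722-7445801, plus strand: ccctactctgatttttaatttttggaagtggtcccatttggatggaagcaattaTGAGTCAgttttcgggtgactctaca
Mmp1a, chr9:7464041-7464120, plus strand: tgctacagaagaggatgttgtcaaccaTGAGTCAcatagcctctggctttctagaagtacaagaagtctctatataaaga
Mmp10, chr9:7502242-7502321, plus strand: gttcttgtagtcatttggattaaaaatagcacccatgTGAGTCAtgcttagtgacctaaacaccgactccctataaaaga
Mmp20, chr9:7628131-7628210, plus strand: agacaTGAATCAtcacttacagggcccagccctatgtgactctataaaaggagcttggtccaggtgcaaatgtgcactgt
Mmp7, chr9:7691990-7692069, plus strand: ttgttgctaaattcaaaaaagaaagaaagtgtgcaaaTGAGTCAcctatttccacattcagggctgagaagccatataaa

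The first base of the match lay from 35 bases before the start (Mmp13) to 95 bases before it (Mmp20). On the strand of the gene, 6 of the 8 read TGAGTCA and Mmp13 read TGACTCA, which is the same site on the opposite strand. Mmp20 read TGAATCA and matched only because any middle base was allowed. Base composition separated the cluster from the other members too. Counted by promoter, GC content ran from 37.7% to 52% in the 12 promoters of the cluster, with a median of 41.7%. It ran from 53.3% to 80% in the 25 promoters of the 24 other members, with a median of 64.7%. The median over all 32851 promoters was 52.7%. By the usual definition of a CpG-rich promoter (GC above 50% and an observed to expected ratio of CpG above 0.6), 0 of the 10 cluster genes and 15 of the 24 others qualified (62.5%), against 35.8% of all genes in the table. A match is a run of letters and does not show that a factor bound there.

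**Figure D1:**
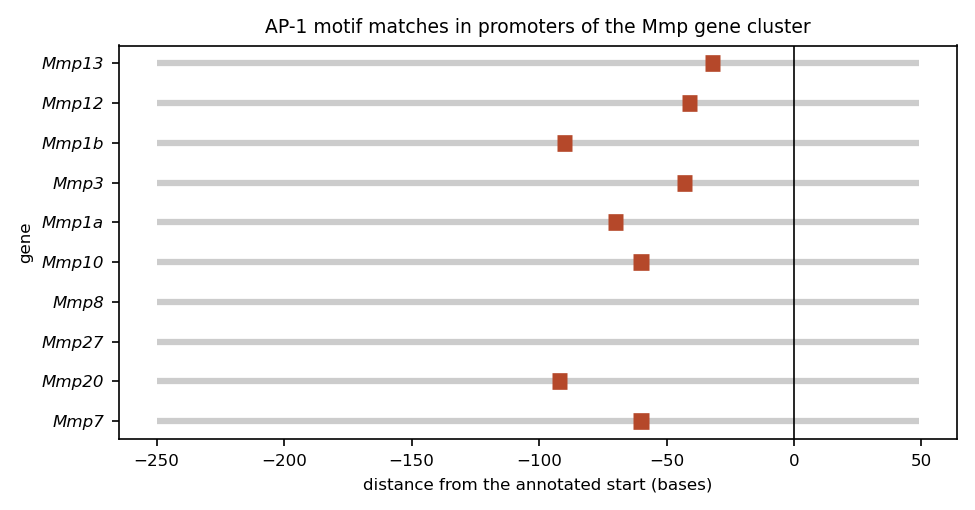
Matches to the AP-1 core motif in the promoters of the 10 Mmp genes that lie side by side on chromosome 9, in genome order from top to bottom. The horizontal axis is the distance from the annotated start in bases, grey bars are the stretch searched, and squares are matches, which lay within 95 bases before the start in 8 genes and were not found in Mmp8 and Mmp27.

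Mmp14 lies on chromosome 14 and is the one gene called in the knockdown comparison whose promoter the table holds. The whole stretch is printed for contrast with the cluster, with its 10 CpG dinucleotides in capitals and no match to the motif. At a ratio of observed to expected CpG of 0.425 it did not qualify as CpG-rich.

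Mmp14, chr14:54431348-54431647, plus strand: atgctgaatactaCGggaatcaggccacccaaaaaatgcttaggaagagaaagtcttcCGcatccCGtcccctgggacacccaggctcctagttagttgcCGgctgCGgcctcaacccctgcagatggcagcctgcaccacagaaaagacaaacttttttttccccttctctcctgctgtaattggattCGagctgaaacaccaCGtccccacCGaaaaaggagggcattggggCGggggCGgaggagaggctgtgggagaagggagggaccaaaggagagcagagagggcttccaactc

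The knockdown was first checked at its targets. Smarca4, which encodes Brg1, measured 11.57 ± 0.04 (SD, n = 3) in control cells and 10.46 ± 0.19 in knockdown cells, both given TNF-α, which is a 2.15-fold fall (limma, adjusted p = 0.00362). Smarca2, which encodes Brm, measured 9.57 ± 0.22 and 9.21 ± 0.15, a difference of -0.36 that did not pass the test (limma, adjusted p = 0.734, and 0.129 with the replicate number as a block). All 3 knockdown arrays lay below all 3 TNF-treated control arrays for Smarca2, with differences of -0.39, -0.43 and -0.26 within replicate numbers. By quantitative RT-PCR, the paper reports that the hairpin lowered both transcripts. Groups shared replicate numbers, which per the methods were made on different days, and same-numbered arrays deviated together, so differences within a number are given for the members on which the results turn. Correlations between arrays lay from 0.9916 to 0.9982. The 8 fibroblast markers examined had a log2 summed signal from 15.62 to 15.77 in unstimulated control cells, 15.50 to 15.73 in TNF-treated control cells and 15.47 to 15.52 in knockdown cells. Sums were taken on the linear scale and are carried by the brightest genes. Thy1, a fibroblast marker, measured 7.36 to 7.65, below the array medians of 7.77 to 7.83. All 8 fibroblast markers were lower on average in the knockdown cells, and 2 of them, Col3a1 and Pdgfra, passed the test with the block (adjusted p = 0.0035 for Col3a1, limma). The part of this shift in the other results was not tested. Summed signals of the 9 leukocyte markers lay from 10.67 to 10.84 over all arrays, of the 5 epithelial markers from 9.81 to 9.99 and of the 4 endothelial markers from 8.67 to 8.84, and 0 of these 18 genes were called in either comparison by either fit. Among the leukocyte markers, Cd14 measured 9.57 to 9.94, above the array medians.

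Of the 49 members, 7 were dim, with a signal below the first quartile of all genes on each of the 9 arrays: Mmp1a, Mmp1b, Mmp3, Mmp8, Mmp12, Mmp27 and Timp4. Of these, 6 lie in the cluster on chromosome 9. A change in a gene whose transcript is near the background of the array would be compressed in these values.

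The first comparison asked whether 1 hr of TNF-α altered the expression of these genes in control cells. The families stayed nearly level: 48 of the 49 differences lay within 0.25 of 0 and 39 within 0.1, with a median of 0.01 against 0.00 over all genes. By limma, 0 members were called higher and 0 lower at an adjusted p under 0.05, where the called shares of all genes were 0.137% and 0%. With the block the counts were again 0 and 0, against 0.366% and 0.0305% of all genes. At an unadjusted p under 0.05, limma had 1 of 49 members higher and 0 lower, near the 1.85% and 1.22% of all genes. The methods' t-test had 1 and 0 too, against 0.543% and 0.0406% of all genes.

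That single gene was Adamts4, one of the aggrecanases, which cut the cartilage proteoglycan aggrecan. It measured 9.30, 9.32 and 8.81 in the unstimulated arrays, 9.78, 9.86 and 9.51 in the TNF-treated control arrays and 9.56, 9.62 and 9.55 in the knockdown arrays. All 3 TNF-treated control arrays lay above all 3 unstimulated ones, as held for 3.19% of all genes in that direction and 2.78% in the other, and 0 members lay apart in the lower direction. The difference was 0.58 (SE 0.14, 95% interval 0.26 to 0.89), with 0.48, 0.54 and 0.71 within the 3 replicate numbers. It did not pass the adjustment over all genes (limma, adjusted p = 0.582, and 0.0594 with the block). Between knockdown and control cells under TNF-α, Adamts4 differed by -0.14 (limma, adjusted p = 0.896).

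The 10 Mmp genes of the cluster, of which all but Mmp8 and Mmp27 carry the AP-1 letters printed above, differed by -0.01 to 0.20 on TNF-α treatment. The 3 Mmp genes with the largest absolute differences were Mmp10 (stromelysin-2), Mmp13 (collagenase-3) and Mmp11 (stromelysin-3, outside the cluster). Mmp10 measured 6.78, 6.63 and 6.92 unstimulated and 6.83, 6.76 and 7.35 after TNF-α, a difference of 0.20. Mmp13 measured 6.30, 6.41 and 6.65 unstimulated and 6.51, 6.39 and 6.96 after TNF-α, a difference of 0.17. In both genes the groups overlapped, and the array numbered 3 was the highest in the unstimulated and in the TNF-treated group. The differences within numbers were 0.05, 0.13 and 0.43 for Mmp10 and 0.22, -0.02 and 0.31 for Mmp13. Without the TNF-treated array numbered 3 alone, the mean differences were 0.02 for Mmp10 and -0.00 for Mmp13. With number 3 left out of every group and the block in the fit, they were 0.09 and 0.10. Mmp11 differed by -0.16, and its smallest adjusted p in either fit was 0.814 (limma with the block).

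Genes for the AP-1 subunits themselves did change on the same arrays. Of 12 AP-1 and ETS family factors measured, Junb rose by 0.77 (limma, adjusted p = 0.00931), and with the block Jun and Fosl1 passed the test too, at differences of 0.81 and 0.86 (adjusted p = 0.0048 and 0.00865). Fos differed by 0.71 without passing either fit (adjusted p = 0.57 with the block). None of the 12 was called lower by either fit. Over all genes, 0.137% were called higher by limma and 0.366% with the block.

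Among the remaining Adamts genes the largest TNF differences were 0.13 for Adamts19 and 0.11 for Adamts18. The 5 Adamtsl genes lay between -0.11 (Adamtsl3) and 0.07 (Adamtsl5), with -0.04 for Adamtsl4. The inhibitors were level as well. Timp1 differed by 0.06 (95% interval -0.08 to 0.19), Timp2 by -0.08 (-0.28 to 0.12), Timp3 by 0.16 (-0.20 to 0.52) and Timp4 by -0.03 (-0.20 to 0.14). For Timp1 and Timp2 these intervals leave out changes of 0.35, the size that the methods asked of an induced gene, and for Timp3 they do not. Timp4 was dim on all arrays, where changes are compressed, so its interval does not bound the change in its transcript.

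**Figure D2:**
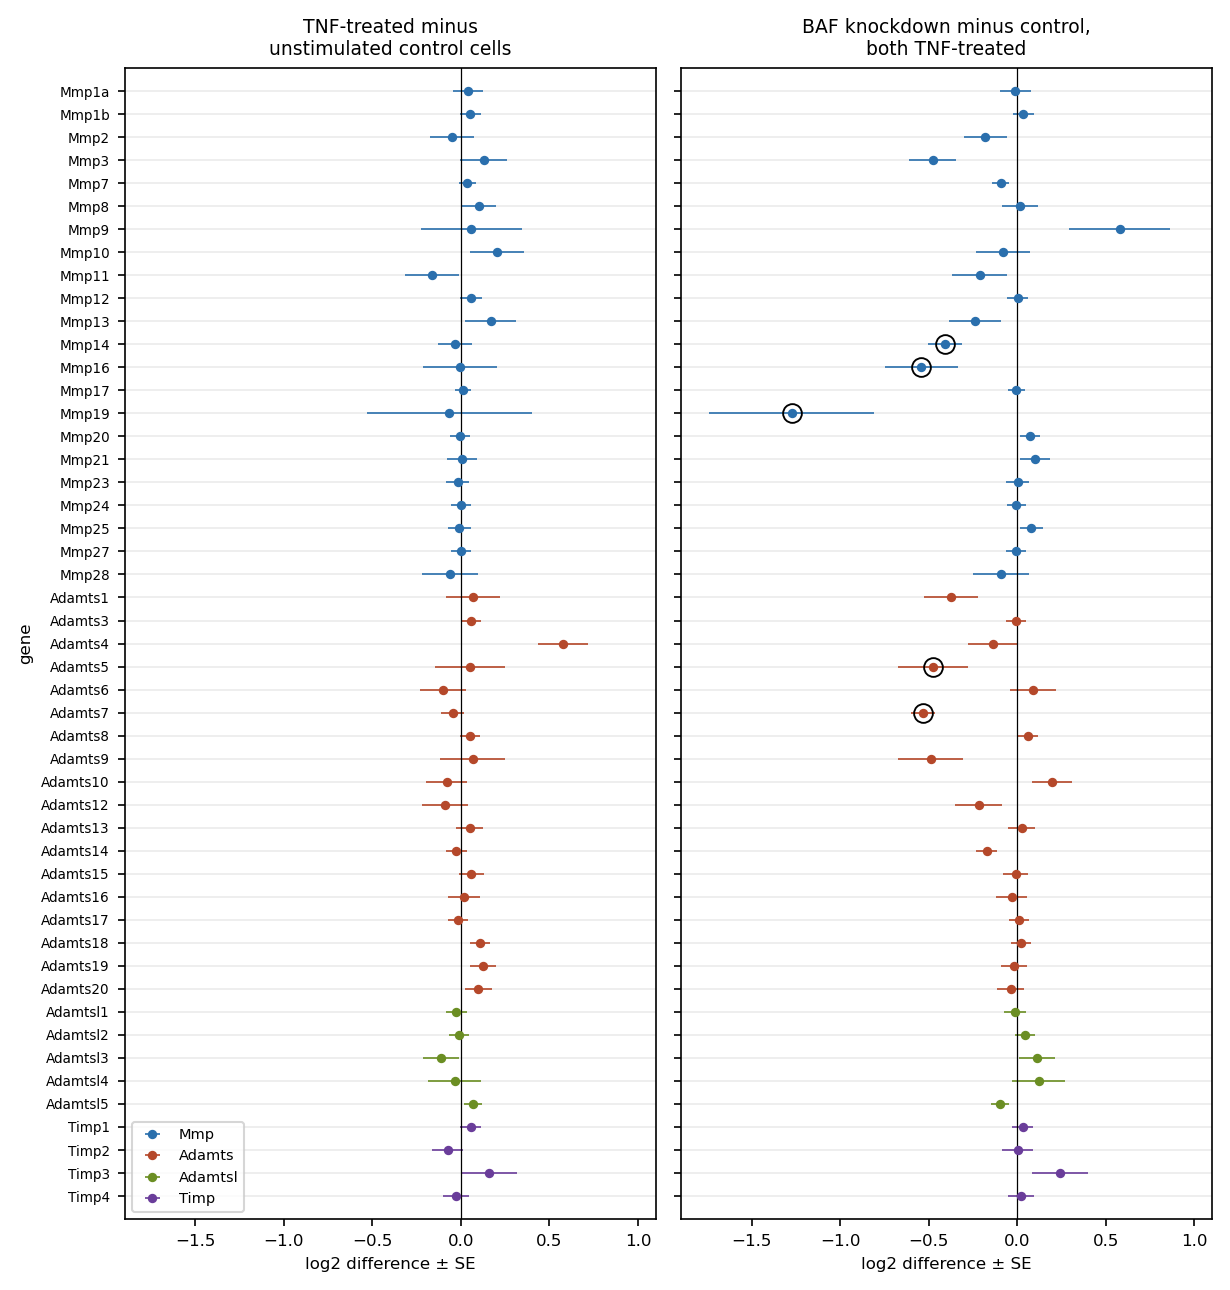
Differences in log2 signal for all 49 members, with the effect of TNF-α in control cells on the left and that of the BAF knockdown under TNF-α on the right. Points are differences between means of 3 arrays and bars are 1 SE from limma without the block; black rings mark the 5 members called with the replicate block, all in the knockdown comparison and all lower, and Adamts4 is the single point far from 0 on the left.

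The second comparison asked how BAF knockdown altered these genes under TNF-α. It shares the TNF-treated control arrays with the first comparison. The members called lower were all proteases of the Mmp and Adamts families, which hold 22 and 18 of the 49 members. By limma, 1 member fell, Adamts7, and 0 rose, where 0.102% of all genes were called lower and 0.0355% higher. With the block, 5 members fell and 0 rose: Mmp14, Mmp16, Mmp19, Adamts5 and Adamts7, or 10.2% of the 49 against 2.33% of all genes lower and 0.98% higher. At an unadjusted p under 0.05, limma had 9 of 49 members lower and 0 higher, against 4.75% and 3.69% of all genes, and the methods' t-test had 3 and 0, against 1.46% and 0.741%. Over all 49 members 28 differences were below 0 and 21 above, with a median of -0.01 against 0.01 over all genes, and 40 lay within 0.25 of 0. In a bulk culture, less transcript in every cell and fewer cells that express a gene cannot be told apart.

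Adamts7 encodes a protease known to cut cartilage oligomeric matrix protein. It measured 9.33, 9.26 and 9.24 in unstimulated control cells, 9.19, 9.21 and 9.29 in TNF-treated control cells and 8.62, 8.83 and 8.64 in knockdown cells. All 3 knockdown arrays lay below all 6 control arrays. The difference under TNF-α was -0.53 (SE 0.07, 95% interval -0.68 to -0.38), a 1.45-fold fall with limma's adjusted p = 0.0297, and 0.0081 with the block. It was -0.56, -0.38 and -0.65 within the 3 replicate numbers. The size changed little when an array was left out, from -0.60 to -0.49, but the call rested on the full set of arrays: the adjusted p was 0.00582 without knockdown array 2 and lay between 0.0509 and 0.152 without any one of the other 8 arrays.

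**Figure D3:**
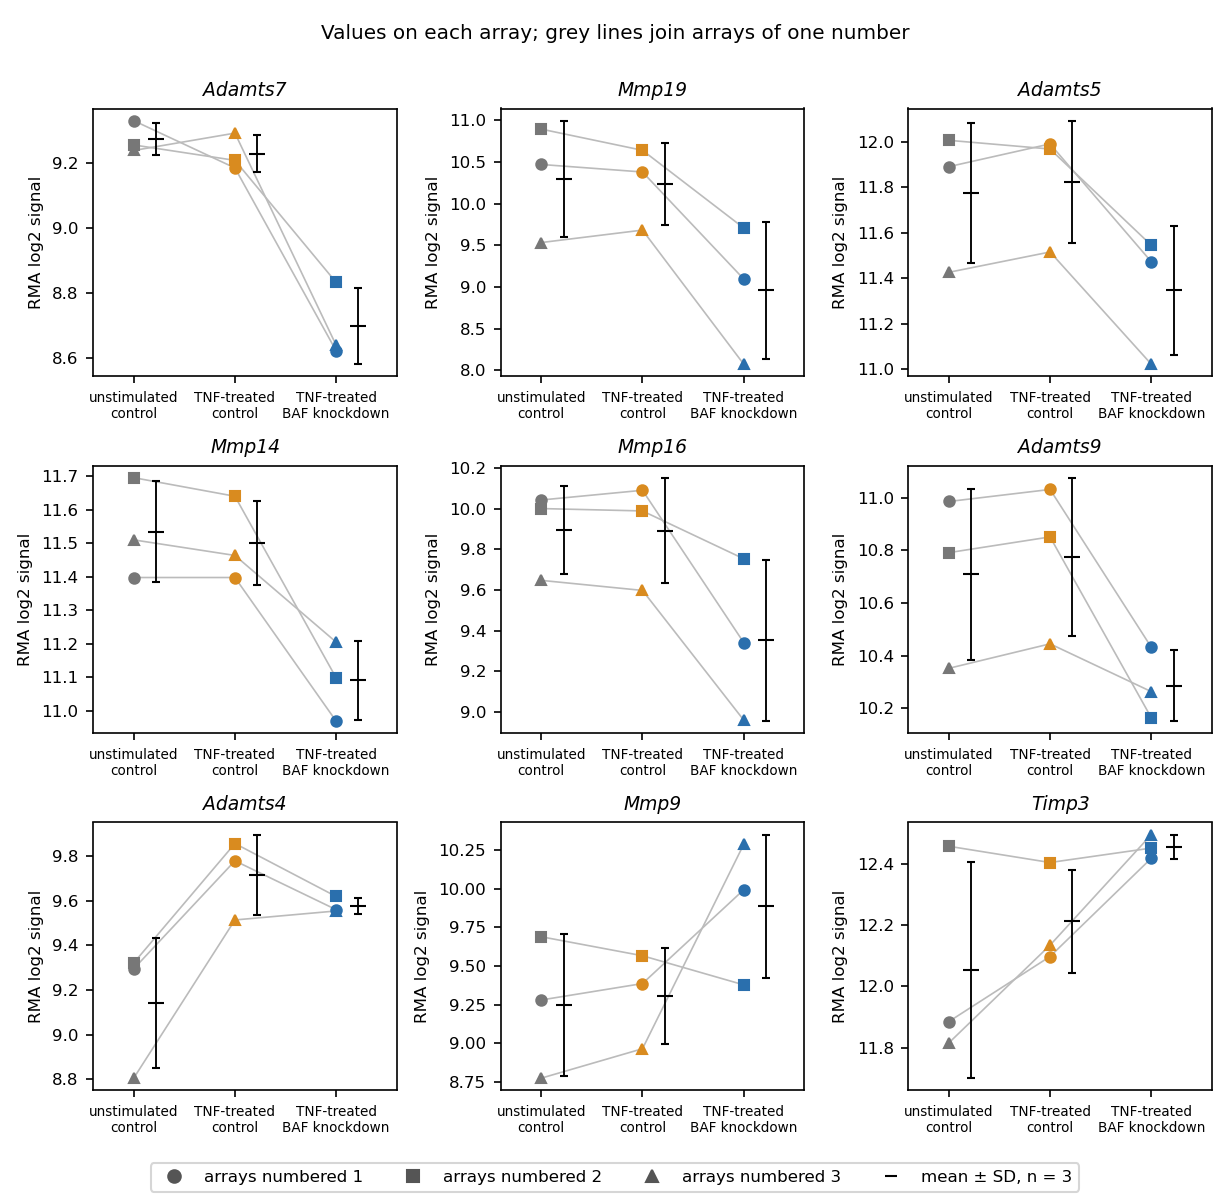
RMA log2 signal of 9 members on each of the 9 arrays (left to right: control cells without TNF-α, control cells with it, knockdown cells with it), with mean and SD (n = 3) beside the points and grey lines joining arrays of the same number. Each panel has its own vertical axis, which does not start at 0; Adamts7 is separated by group alone, while in Mmp19, Adamts5 and Mmp16 every grey line falls from the TNF-treated control to the knockdown array, from starts that differ by number.

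Mmp19, a secreted MMP that cuts components of basement membranes, had the largest difference of the 49. It measured 10.47, 10.90 and 9.53 in unstimulated control cells, 10.38, 10.64 and 9.68 in TNF-treated control cells and 9.10, 9.71 and 8.08 in knockdown cells. The groups overlapped because the arrays numbered 3 were lowest in each group, but the knockdown array was below the TNF-treated control array of its own number each time, with differences of -1.28, -0.93 and -1.61. The mean difference was -1.27, or 2.42-fold, with an SE of 0.47 and an adjusted p of 0.463 by limma, and an SE of 0.11 and an adjusted p of 0.00149 once the replicate number was a block.

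Adamts5, the other main aggrecanase, showed the same arrangement on a smaller scale. Its values were 11.99, 11.97 and 11.52 in TNF-treated control cells and 11.47, 11.54 and 11.02 in knockdown cells, with 11.89, 12.01 and 11.43 in unstimulated control cells. The groups overlapped, and the differences within numbers were close to each other at -0.52, -0.42 and -0.49. The mean difference of -0.48 (1.39-fold) had an adjusted p of 0.549 by limma and 0.00322 with the block.

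Mmp14 and Mmp16 are membrane-type MMPs, both able to activate the proenzyme of Mmp2. Mmp14 measured 11.40, 11.64 and 11.46 in TNF-treated control cells and 10.97, 11.10 and 11.20 in knockdown cells, after 11.40, 11.70 and 11.51 in unstimulated control cells. All 3 knockdown arrays were lower than all 6 control arrays, and the differences within numbers were -0.43, -0.54 and -0.26. The difference under TNF-α was -0.41 (1.33-fold, SE 0.10, limma adjusted p = 0.172, and 0.0178 with the block). Mmp16 measured 10.09, 9.99 and 9.60 in TNF-treated control cells and 9.34, 9.75 and 8.96 in knockdown cells. These groups overlapped, knockdown array 2 being higher than TNF-treated control array 3, and the differences within numbers were -0.75, -0.24 and -0.64. The difference was -0.54 (1.46-fold, SE 0.21, limma adjusted p = 0.489, and 0.0309 with the block).

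The blocked calls depended on which replicate numbers were in the fit. Without number 1 the count of members called lower was 0, and 0 of all 19698 genes were called in either direction. Without number 2 it was 4, namely Adamts5, Adamts7, Mmp16 and Mmp19, where 441 of all genes were called lower. Without number 3 it was 2, namely Mmp19 and Adamts9, where 77 of all genes were. The signs of these 6 genes were the same in every alternative run, though many of those runs cannot alter a mean difference.

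Adamts9 and Adamts1, which cut the proteoglycans versican and aggrecan, were near the threshold or short of it. Adamts9 measured 11.03, 10.85 and 10.44 in TNF-treated control cells and 10.43, 10.16 and 10.26 in knockdown cells. The groups did not overlap, though only narrowly, knockdown array 1 against control array 3, and the differences within numbers were -0.60, -0.69 and -0.18. The difference was -0.49 (1.40-fold, limma adjusted p = 0.481, and 0.0515 with the block), and the 5 other rows of the array annotated to Adamts9 ranged from -0.60 to -0.33. Adamts1 measured 10.34, 9.94 and 9.86 in TNF-treated control cells and 9.68, 9.78 and 9.56 in knockdown cells. Its groups did not overlap, with -0.67, -0.16 and -0.30 within numbers, and the mean difference was -0.37 (limma adjusted p = 0.537, and 0.0989 with the block).

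In the cluster on chromosome 9, 0 of 10 genes passed limma with or without the block (1 lower at an unadjusted p under 0.05), and differences ran from -0.48 to 0.07. The gene at the lower end was Mmp3, stromelysin-1, which was dim on all arrays. It measured 6.57, 6.42 and 6.52 in TNF-treated control cells and 6.31, 5.88 and 5.89 in knockdown cells, with 6.33, 6.21 and 6.59 in unstimulated control cells. The knockdown arrays lay below the TNF-treated control arrays without overlap, by -0.26, -0.54 and -0.64 within numbers, and the mean difference of -0.48 had an adjusted p of 0.256 by limma and 0.0673 with the block. Mmp13 and Mmp10 differed by -0.24 and -0.08.

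The gelatinases went different ways without passing a test. Mmp9, gelatinase B, measured 9.39, 9.57 and 8.96 in TNF-treated control cells and 9.99, 9.38 and 10.29 in knockdown cells. The arrays numbered 1 and 3 were higher in the knockdown, by 0.61 and 1.32, and those numbered 2 were not, at -0.19. The mean difference was 0.58 (95% interval -0.07 to 1.23), with an adjusted p of 0.662 by limma and 0.471 with the block. Mmp2, gelatinase A, measured 12.92, 13.13 and 12.76 in TNF-treated control cells and 12.81, 12.76 and 12.70 in knockdown cells, a difference of -0.18 (95% interval -0.46 to 0.10, limma adjusted p = 0.817). Mmp9 was the only member past 0.3 in the higher direction, the size that the methods asked of a BAF-inhibited gene, and 1.87% of all genes were past it.

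In the lower direction 8 of the 49 members were past -0.3 (16.3%, against 3.27% of all genes): Mmp3, Mmp14, Mmp16, Mmp19, Adamts1, Adamts5, Adamts7 and Adamts9. There were 7 members with all knockdown arrays below all TNF-treated control arrays (14.3%, against 5.47% of all genes), namely 5 of those described above (Mmp3, Mmp14, Adamts1, Adamts7 and Adamts9) with Mmp7 and Adamts14 at -0.09 and -0.17, the last pair named only after their values were seen. Timp3 was the one member with all knockdown arrays above, against 4.63% of all genes. The knockdown array was lower within each of the 3 numbers for 14 members (28.6%, against 12.8% of all genes) and higher within each for 2, Timp3 and Adamts18 (4.08%, against 12.9%). These shares describe the 49 genes and were not tested.

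**Figure D4:**
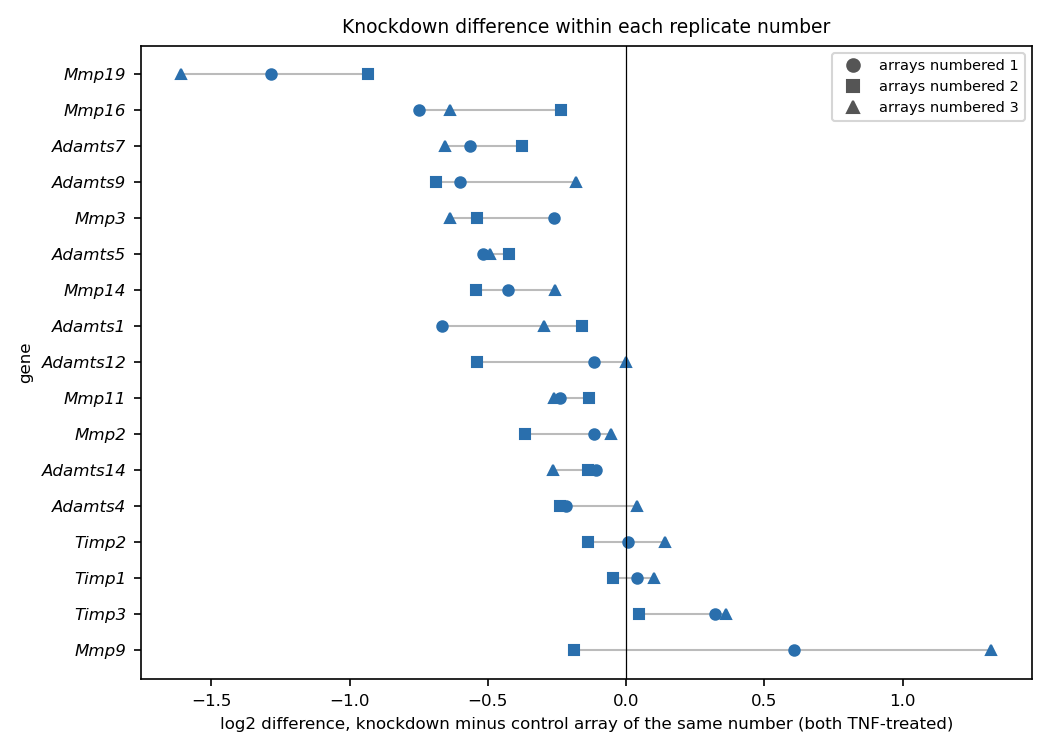
Knockdown minus control difference in log2 signal, both TNF-treated, within replicate numbers 1 (circles), 2 (squares) and 3 (triangles) for 17 protease and inhibitor genes ordered by mean difference. The 5 genes called with the block (Mmp19, Mmp16, Adamts7, Adamts5, Mmp14) lie left of 0 at every number, whereas Mmp9 lies on both sides, from -0.19 to 1.32.

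Of the 4 inhibitors, 0 passed limma with or without the block, and 0 had an unadjusted p under 0.05. Timp1, the cytokine-responsive inhibitor, measured 13.25, 13.15 and 13.18 in TNF-treated control cells and 13.28, 13.10 and 13.28 in knockdown cells, a difference of 0.03 (95% interval -0.10 to 0.17). Timp2, which also serves as a bridge between Mmp14 and the proenzyme of Mmp2, differed by 0.00 (-0.20 to 0.20), and Timp4 by 0.02 (-0.14 to 0.19). The groups overlapped in all 3 genes, and the intervals of Timp1 and Timp2 leave out changes of 0.3 in either direction. Timp4 was dim on all arrays, so its interval does not bound the change in its transcript. Timp3, which is bound in the matrix and inhibits aggrecanases as well as MMPs, measured 12.10, 12.40 and 12.13 in TNF-treated control cells and 12.42, 12.45 and 12.49 in knockdown cells. The knockdown arrays were all higher, by 0.32, 0.05 and 0.36 within numbers, but unstimulated control array 2 reached 12.46, level with them. The difference was 0.24 (1.18-fold, 95% interval -0.12 to 0.60), with an adjusted p of 0.801 by limma and 0.434 with the block. The 5 Adamtsl genes lay between -0.10 (Adamtsl5) and 0.12 (Adamtsl4), with 0.11 for Adamtsl3, and 0 of them passed either fit.

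Replicate number moved some of these genes as much as the groups did. In 7 of the 49 members the array numbered 3 was lowest in each of the 3 groups: Mmp2, Mmp16, Mmp19, Adamts1, Adamts4, Adamts5 and Adamts8. The same held for 7.42% of all genes. For Adamts8 it rested on 7.3096 and 7.3091 in TNF-treated control arrays 1 and 3. For Adamts4 it rested on 9.56 and 9.554 in the knockdown arrays of those numbers. Arrays numbered 1 and 2 were lowest in every group in 3 members each, against 5.66% and 7.47% of all genes. In the unstimulated control cells alone, Mmp19 spanned 9.53 to 10.90.

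Genes that work with these proteases were read from lists of activators, inhibitors, related proteases, substrates and transcription factors. Of the substrates and binding partners, 19 were measured. By limma 2 of them fell in the knockdown cells: Vcan, the proteoglycan versican cut by several ADAMTS enzymes, went from 12.30 to 11.70 (difference -0.61, SE 0.06, adjusted p = 0.00719), and Ltbp1, a latent TGF-β binding protein, fell by 0.33 (adjusted p = 0.0428). With the block Dcn (decorin, -2.13), Nid1 (nidogen, -1.33) and Col3a1 (-0.93) fell as well, with adjusted p of 0.00101, 0.0245 and 0.0035, which makes 5 of 19, against the 2.33% of all genes lower with the block. None of the 19 was called higher by either fit, though 8 of the 19 differences were above 0.

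The ADAM genes encode mostly membrane-bound relatives of the ADAMTS family, not all of them active proteases. Of the 11 measured, 0 passed limma and 3 fell with the block, set against the same 2.33%: Adam12 by 0.78 (adjusted p = 0.0158), Adam19 by 0.63 (0.0264) and Adam15 by 0.26 (0.0299). Of 4 proprotein convertases, which remove the propeptide of many ADAMTS enzymes and membrane-type MMPs, Pcsk6 rose by 0.33 with the block (adjusted p = 0.0429, against 0.0913 by limma alone). With the block 0.98% of all genes were called higher. Of 13 other inhibitors and clearance factors, Thbs1, which encodes thrombospondin 1, fell by 0.32 with the block (adjusted p = 0.0309). Of the 12 AP-1 and ETS factors, Ets2 and Elk3, both ETS factors, fell by 0.35 and 0.38 with the block (adjusted p = 0.031 and 0.0211). For Thbs1, Ets2 and Elk3 the share of all genes is the same 2.33%.

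Of 6 genes of plasminogen activation, the cascade that can activate MMP proenzymes, 0 passed limma in either comparison with or without the block. At an unadjusted p under 0.05 by limma, 2 were higher after TNF-α, Plau and Plaur, against 1.85% of all genes. In the knockdown 1 was lower, against 4.75% of all genes. The largest value was that of Serpinb2, plasminogen activator inhibitor type 2, which differed by 1.40 on TNF-α treatment of control cells and by -2.23 between knockdown and control cells (limma adjusted p = 0.4 for the knockdown, and 0.0774 with the block). Its replicates spread widely, with an SE of 0.74. In the TNF comparison, 0 genes passed either fit among the convertases, the other inhibitors, the ADAM genes and the substrates. The largest absolute difference there was that of Lrp1, a clearance receptor, at -0.27.

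**Figure D5:**
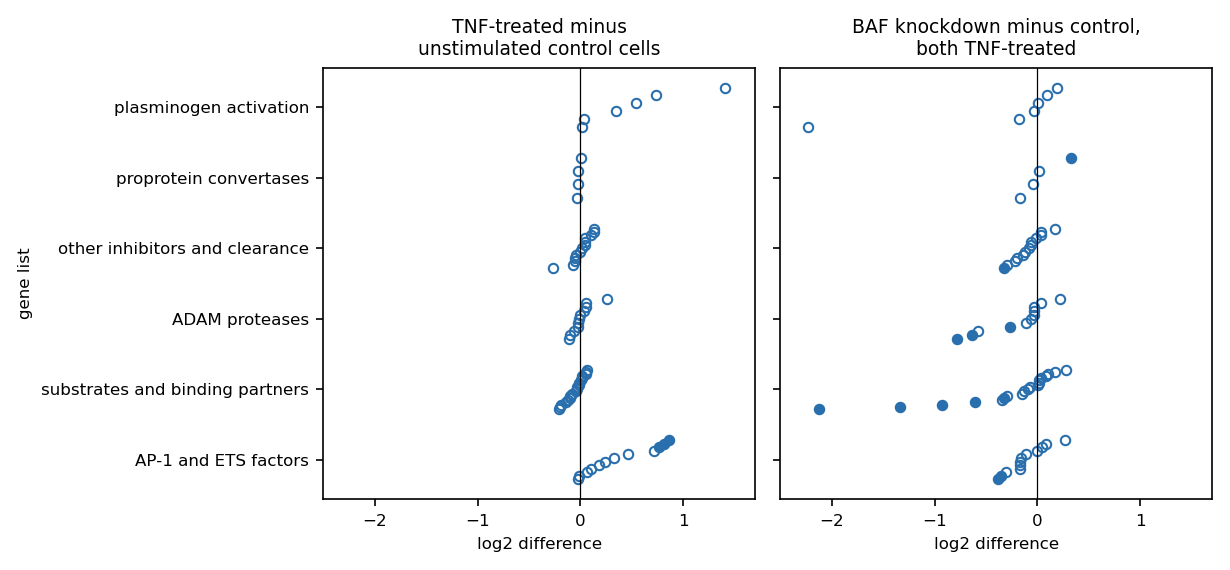
Differences in log2 signal for the partner genes of the metalloproteases, one row per list, with the effect of TNF-α in control cells on the left and that of the BAF knockdown under TNF-α on the right. Each point is a gene, spread vertically only for legibility, and filled points passed limma with the replicate block: on the left these are 3 AP-1 genes, all above 0, and on the right 11 genes below 0 and Pcsk6 above.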

How the data were processed

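The authors hybridised total RNA from 9 cultures to Affymetrix mouse Gene arrays and deposited log2 signals processed by RMA (background correction, quantile normalisation and median polish), for which the methods name the affy package. RMA shrinks differences between dim probe sets, and arrays give no read depth, so precision rests on 3 arrays per group. The labels name a column kit for RNA extraction, the methods a phenol lysis buffer. Of 27024 rows, 21319 have 1 gene symbol in the platform annotation, 1430 several and 4275 none. For each symbol the row with the highest mean was kept, which left 19698 genes.

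Groups came from the sample titles. Group means were compared by limma (version 3.58.1, run in R 4.3.3, two-sided, with all 9 arrays and 6 residual degrees of freedom), with p-values adjusted by Benjamini-Hochberg over all 19698 genes and called at an adjusted p under 0.05. Deviations from the group mean correlated from 0.21 to 0.724 between same-numbered arrays (9 pairs) and from -0.566 to 0.0111 between others (18 pairs), and the numbers were therefore treated as pairs. The fit with the number as a block is given where it changes a call. The methods' t-test (Student's, with a difference over 0.35 for TNF-α or 0.3 for the knockdown) was run as an alternative.

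The members, gene lists and tests were chosen with earlier results of these data known. Genes named are those called by either fit, the Timp genes, the 3 of each protease or Adamtsl family with the largest differences, and well-known fibroblast metalloproteases. Partner and marker lists held 97 entries, of which 6 were not analysed here. Promoters came from the RefSeq table (GRCm38.p6), and protein sequences were not used here.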

Additional observations from a re-analysis of the deposited data

How the results depend on the processing

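TNF-α: the counts of members called were 0 higher and 0 lower in every alternative run except the methods' unadjusted t-test, with 1 higher (Adamts4). Knockdown: the 1 member called lower became 5 with the replicate block, 0 with only the 6 arrays compared, 0 by the adjusted and 3 by the unadjusted t-test of the methods, and 0 to 1 when single arrays were left out. With the replicate block and without number 1, 2 or 3 it was 0, 4 and 2, where 0, 441 and 77 of all genes were called lower. Median centring, array weights, a variance trend, a filter on dim genes and keeping every row each left it at 1. The count called higher was 0 in all of them. The sign held in all 21 alternatives for Adamts7 (-0.61 to -0.47), Mmp19 (-1.65 to -0.83), Adamts5 (-0.63 to -0.32), Mmp14 (-0.49 to -0.34), Mmp16 (-0.74 to -0.35), Mmp9 (0.21 to 0.96) and Timp3 (0.18 to 0.34). It held in 16 of 21 for Timp2 and in 16 of 20 for Timp4, both near 0. The block, the variance trend, the dim filter, the t-tests and the loss of an unstimulated array cannot alter a knockdown difference. A sign kept in those runs was fixed in advance. In Adamts7, Mmp14 and Timp3 the groups did not overlap, so leaving out an array could not reverse the sign either. Signal over background limits the 7 dim members, whose differences were measured near the floor of the array. With 3 arrays a group, 1 hairpin and 1 time point, smaller or later changes were not measured here.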
